A study of Saccharomyces cerevisiae with 24 samples.

Results

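The outermost genes of the yeast chromosome arms were taken from the deposited table as the 5 rows of each of the 32 arms whose systematic names carry the highest numbers counted away from the centromere, using names without a suffix. This gave 160 of the 6157 rows, among them COS12 on the left arm of chromosome VII and YPS6 on the right arm of chromosome IX. The rule used only the names of the rows and no measured value. It was set with earlier results of these data known and named COS12 and YPS6, so counts that rest on them are descriptions. The question was whether strains that differ in the RNA-binding protein Pho92 share differences in these genes.

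Polyadenylated RNA was sequenced from diploid budding yeast held in early meiosis in a starvation medium for sporulation, with 8 groups of 3 libraries. All strains were MATa/alpha, with LYS2 inserted at ho, mutations in lys2 and ura3, and hisG insertions at leu2, his3 and trp1. Pho92, through its YTH domain, recognizes the methylated adenosine m6A in mRNA. Copper sulfate at 50 µM was added to all 8 groups 3 h after the transfer, so the controls carried it too, and the time of collection after that is not given in the sources used here. WT carried PHO92 at its own locus, and in pho92Δ the gene was replaced with a hygromycin resistance marker. The other 6 groups carried that deletion and an HA-tagged PHO92 at trp1 under the copper-inducible CUP1 promoter. The encoded protein was wild type in CUP1-PHO92, lacked residues 35 to 42 in Δ35–42, and carried a substitution in L35A, L38P, I39A and W177A. The sample titles were followed where other labels differ. The substitution given in the genotype of the I39A strain is written L39A. The table's header gives W177A a group name with the word delete, and the same strain number, 10829, as CUP1-PHO92. The header gives no group more than 1 strain number, and every other group has its own, so most differences between groups are also differences between strains.

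The ends of yeast chromosomes carry young and repeated gene families, many of which handle nutrients, metals or cell surface components that are needed only under particular conditions. Chromatin near telomeres can be kept silent by the Sir proteins, which spread from the telomere repeats, and by histone deacetylases such as Hda1 that act further inward. Much of this repression depends on the growth state of the cell, and the same silencing machinery keeps the unexpressed mating-type cassettes off.

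Library totals ran from 16108079 to 36733806 counts. Abundance is given below as CPM, the usual depth-scaled count, with library sizes adjusted by TMM, and 3 counts, taken as the floor, corresponded to 0.0828 to 0.179 CPM. PHO92 itself was 859 ± 61.1 CPM in WT and 0.279 ± 0.411 CPM in pho92Δ (SD, n = 3), and its group means in the 6 CUP1 strains lay between 9160 CPM and 12700 CPM. Early meiotic markers (8 of 8 genes measured) summed to 7640 to 11000 CPM in L38P and to 14700 to 20700 CPM in the other 7 groups. Middle meiotic markers (8 of 8) summed to 125 to 512 CPM in L38P, 542 to 847 CPM in pho92Δ, 1170 to 3820 CPM in CUP1-PHO92 and up to 11200 CPM in a WT library. Markers of haploid a cells (5 of 5) stayed between 58.3 and 98.4 CPM, and those of haploid alpha cells (3 of 3) between 16.5 and 62.5 CPM. Fewer cells at a stage and less RNA per cell cannot be told apart in these cultures. The table's header places L38P replicate 2 and W177A replicate 1 in batch B and the other 22 libraries in batch A. Nothing in the labels says that replicates came from separate cultures, so p-values measure the spread between these samples, which may be technical.

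These are the outermost rows of the table, which are not always the outermost genes of the chromosome. On 28 of the 32 arms the RefSeq assembly R64 lists genes further out that have no row, 106 in all and between 0 and 10 per arm. The table holds no row for a Y' helicase (YRF1), the telomere-adjacent family, and its 4 rows of the PAU family of seripauperins are not among the outermost rows. Of the 160 rows, 150 matched a gene of R64, and 19 had over 10% of their sequence repeated elsewhere at a length of 100 bases. Counts for those 19 can be shared with their copies. The rows of COS3 and COS7 were identical in all 24 libraries and hold 1 measured quantity. HMLALPHA1 and HMLALPHA2, the silent copies of the alpha mating-type genes, have the same sequence as the expressed copies.

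The outermost genes were detected at lower levels than the rest of the genome. Of the 160, 152 passed the filter on low counts, and 8 were removed: YAL066W, YAR030C, YIL163C, YJL211C, YKL223W, YLR458W, YMR320W and YOL166C. The share removed was 5.0%, against 7.52% of the other rows. Per kilobase of coding length, the median level over all libraries was 35.1 CPM per kb for the 150 rows with a length and 58.8 CPM per kb for 5470 other rows. Among the 5 places the median was 37.4 CPM per kb at the outermost, then 41.2, 20.8, 29.8 and 31.4 CPM per kb. At places 6 to 10 it was 50.0, 58.5, 62.9, 49.2 and 59.0 CPM per kb, so each of these 5 medians was above each of the outer 5.

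The range was wide, from 0.389 CPM per kb for YIL163C to 950 CPM per kb for YAT1, which encodes the outer mitochondrial carnitine acetyltransferase. YAT1 was followed by BAT1, the mitochondrial branched-chain aminotransferase, at 945 CPM per kb. AQY1, a spore aquaporin, stood at 881 CPM per kb and BGL2, a cell wall glucanase, at 847 CPM per kb. GDH3, an NADP-dependent glutamate dehydrogenase, was at 554 CPM per kb. The COS genes, a family of membrane proteins that helps to sort cell surface proteins for degradation, spread widely, from 5.78 CPM per kb for COS10 and 9.25 CPM per kb for COS12 to 479 CPM per kb for COS8.

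**Figure D1:**
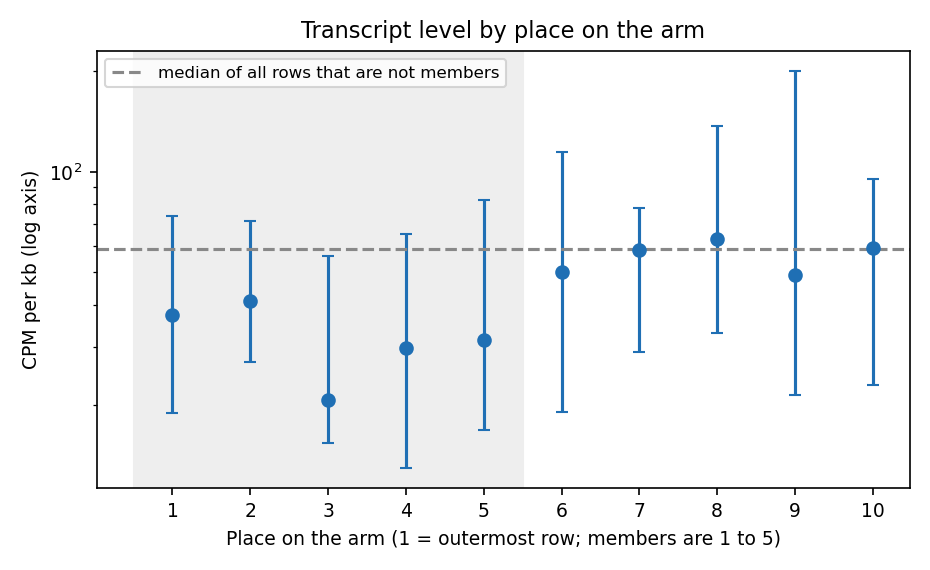
Level by place on the chromosome arm, as CPM per kb of coding length over all 24 libraries, on a log axis. Points are medians over the arms, bars run from the lower to the upper quartile, the shaded places 1 to 5 are the outermost rows, and the dashed line is the median of 58.8 CPM per kb of the other rows; the medians of places 1 to 5 lie between 20.8 and 41.2 CPM per kb.

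The outermost genes did not differ between strains more often than other genes, but their differences leaned upwards in L38P and Δ35–42. At an adjusted p under 0.05 (edgeR's quasi-likelihood test, Benjamini-Hochberg over 5698 features), 89 of the 152 members tested, or 58.6%, differed somewhere among the 8 groups, against 63.2% of all features. The member with the smallest p was YPS6, followed by ZRT1, MMP1, COS12 and YAT1. Of the members, 35 (23.0%) had the 3 libraries of 1 group all above or all below the 21 others, against 22.5% of all features. By strain, 22 of these were genes highest in L38P, which is 14.5% of members against 8.7% of all features, and 3 were genes lowest in L38P (1.97% against 6.88%). CUP1-PHO92 was highest in 3 members (1.97%, all features 1.9%) and lowest in 5 (3.29%, all features 1.63%). Δ35–42 was highest in COS12 (0.658%, all features 0.0527%) and W177A lowest in FRE2 (0.658%, all features 0.211%, with 0.527% highest). WT, pho92Δ, L35A and I39A had no member apart from the rest. Of all features, 0.281%, 0.369% and 0.228% were highest in WT, pho92Δ and L35A, and 0.667%, 0.878%, 0.193% and 0.0176% lowest in WT, pho92Δ, L35A and I39A.

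**Figure D2:**
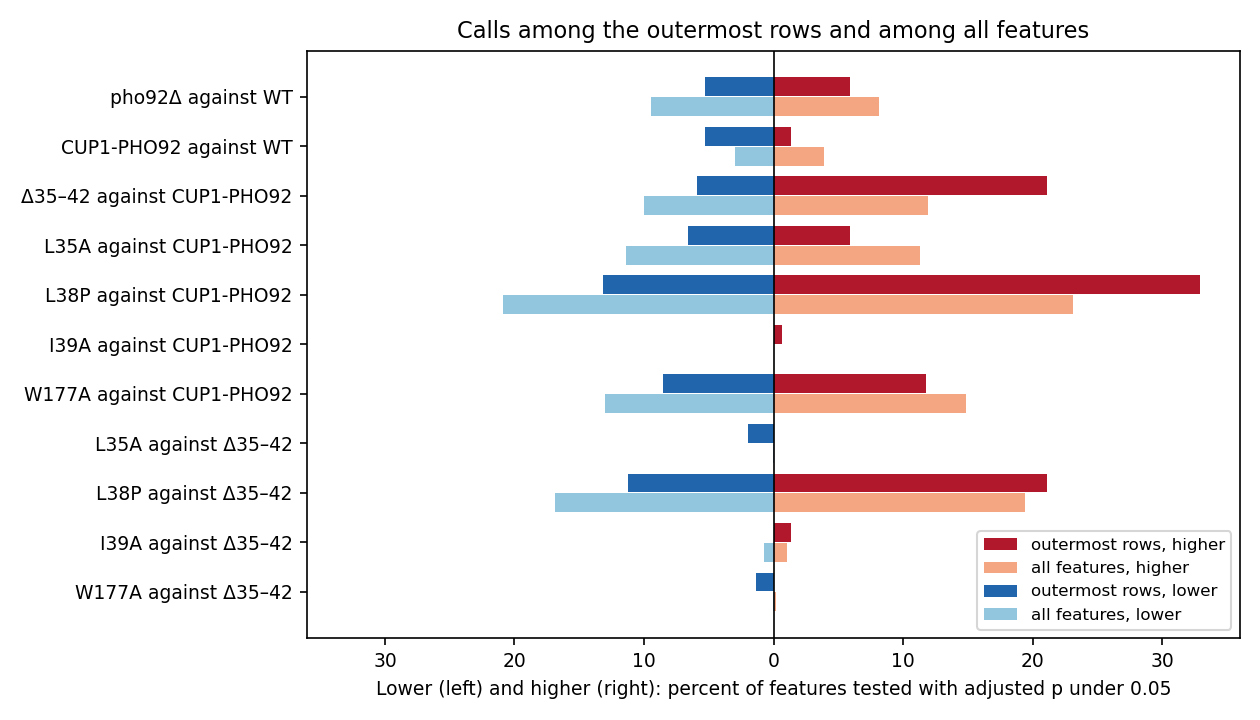
Percent of the 152 outermost rows tested and of all 5698 features with an adjusted p under 0.05, split into higher (right of 0) and lower (left of 0) in the first-named group of each comparison. Among the outermost rows the higher calls reach 21.1% in Δ35–42 and 32.9% in L38P against CUP1-PHO92, where those of all features are 11.9% and 23.1%.

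YPS6, COS12 and COS12's neighbour YGL262W divided the 6 CUP1 strains into a low and a high set. All 3 were low in CUP1-PHO92, L35A and W177A and high in Δ35–42, L38P and I39A. CUP1-PHO92 and W177A share a strain number in the header. YPS6 encodes a putative aspartic protease of the yapsin family, anchored at the cell surface; YGL262W encodes a protein of unknown function. YPS6 is the outermost row of right arm IX, and COS12 and YGL262W are the first and second rows of left arm VII. COS12 and YPS6 were pointed out when the outermost rows were chosen, so their place in the ranking is a description.

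YPS6 stood at 59.1, 61.7 and 65.7 CPM in the CUP1-PHO92 libraries, at 63.6, 68.7 and 65.2 CPM in L35A, and at 72.0, 69.5 and 63.1 CPM in W177A. It stood at 114, 140.0 and 125 CPM in Δ35–42, at 121, 126 and 125 CPM in I39A, and at 135, 148 and 154 CPM in L38P. Every library of the first 3 strains was below every library of the other 3. In pho92Δ the values were 116, 106 and 122 CPM, also above all 9 of the low libraries. In WT they were 80.0, 120.0 and 97.6 CPM, so replicate 2 of WT lay inside the range of the high strains and replicate 1 just above the low ones.

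The log2 fold change of YPS6 against CUP1-PHO92 was 1.02 (SE 0.113, adjusted p = 9.01e-06) in Δ35–42, 1.23 (SE 0.113, adjusted p = 3.57e-06) in L38P and 1.00 (SE 0.113, adjusted p = 0.00014) in I39A. In L35A it was 0.08 (SE 0.112, adjusted p = 0.629) and in W177A 0.13 (SE 0.112, adjusted p = 0.388), neither past the threshold. CUP1-PHO92 was also lower than WT (log2 fold change -0.67, SE 0.112, adjusted p = 0.00133); in a fit of those 6 libraries alone this call was lost.

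COS12 divided the strains in the same way at a lower level. It was 7.11, 7.05 and 4.86 CPM in CUP1-PHO92, 3.99, 7.49 and 3.45 CPM in L35A, and 6.51, 5.88 and 5.12 CPM in W177A. It was 17.1, 18.1 and 18.2 CPM in Δ35–42, 15.1, 14.6 and 16.9 CPM in L38P, and 10.3, 13.5 and 13.5 CPM in I39A. The 9 libraries of the low strains again lay below the 9 of the high strains. WT held 8.35, 11.2 and 8.72 CPM and pho92Δ 12.1, 14.0 and 10.8 CPM, between the extremes. Against CUP1-PHO92 the log2 fold change was 1.49 (SE 0.221, adjusted p = 0.000147) in Δ35–42 and 1.29 (SE 0.22, adjusted p = 0.000142) in L38P. In I39A it was 0.97 (SE 0.221), which did not pass the threshold in edgeR (adjusted p = 0.169) and did in DESeq2 (adjusted p = 0.0129).

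YGL262W had means of 6.35 ± 1.12 CPM in CUP1-PHO92, 5.58 ± 0.795 CPM in L35A and 6.93 ± 1.6 CPM in W177A (SD, n = 3). Its means were 11.7 ± 2.08 CPM in Δ35–42, 10.1 ± 1.05 CPM in L38P and 10.6 ± 0.5 CPM in I39A. The low and high strains did not overlap here either, the closest libraries being W177A replicate 1 at 8.78 CPM and an L38P library at 9.28 CPM. Without W177A replicate 1, the library of batch B, the difference of W177A from CUP1-PHO92 changed sign, from above to below 0, and neither value passed the test. Middle meiotic markers summed to 1170 to 3820 CPM in CUP1-PHO92, 2380 to 8570 CPM in L35A and 453 to 1770 CPM in W177A. They summed to 689 to 1610 CPM in Δ35–42, 125 to 512 CPM in L38P and 2400 to 3960 CPM in I39A. The part of meiotic stage in this division of the strains was not tested.

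**Figure D3:**
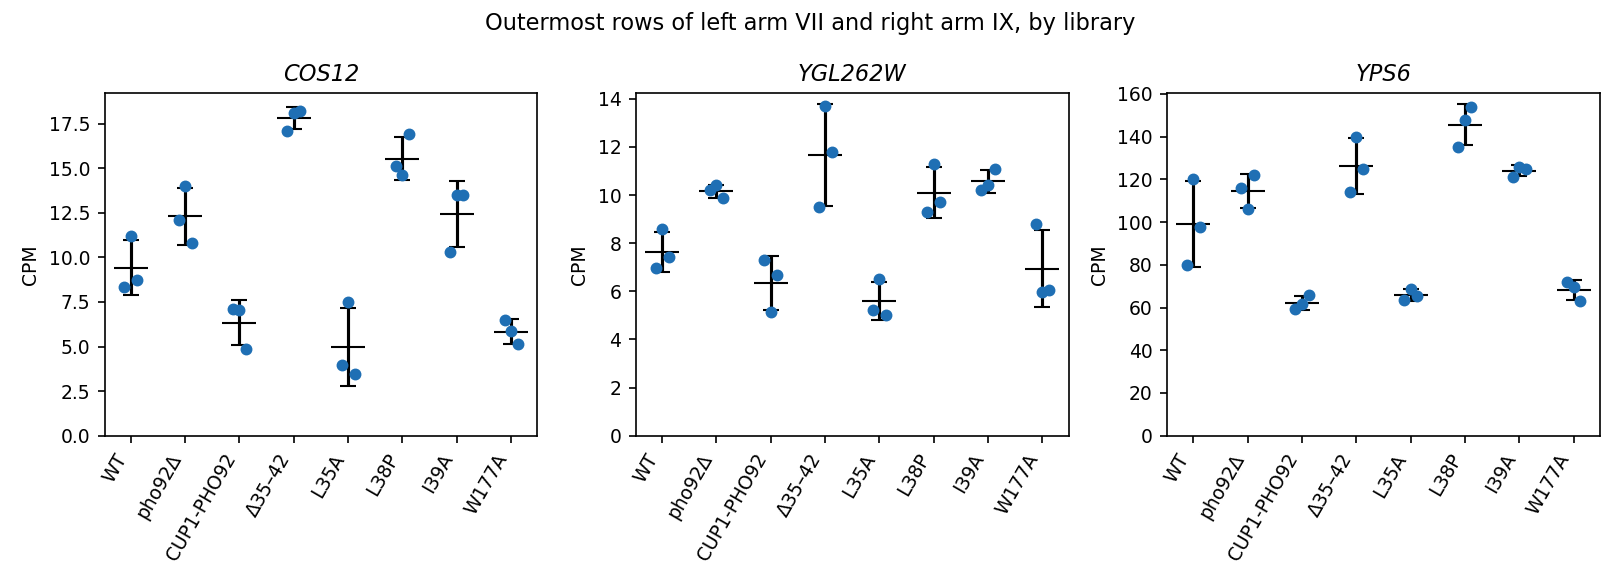
CPM of COS12, YGL262W and YPS6 in each library (points, 3 per group), with group means (horizontal bars) and SD (whiskers). In all 3 panels the libraries of CUP1-PHO92, L35A and W177A lie below those of Δ35–42, L38P and I39A; YPS6 means run from 62.2 CPM in CUP1-PHO92 to 146 CPM in L38P.

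The comparison of L35A with Δ35–42, which lacks the residue substituted in L35A, gave calls in these 3 genes when edgeR was fitted without a replicate block. Of the 5698 features tested, 3 passed the threshold (0.0527%), and all 3 were members, 1.97% of those tested, and lower in L35A. COS12 and YPS6 were named when the outermost rows were chosen with earlier results known, so this share is a description. The log2 fold change was -1.85 for COS12 (SE 0.224), -1.06 for YGL262W (SE 0.175) and -0.94 for YPS6 (SE 0.113), with adjusted p = 0.000222, 0.0115 and 0.000222. The call of YGL262W was lost without Δ35–42 replicate 2 or 3 or L35A replicate 1. Before adjustment, 40 members and 1017 features of all kinds had a p under 0.05. Libraries of the same replicate number deviated together in these groups, and with the number as a block 14 members passed, 2 higher and 12 lower in L35A, against 6.77% of all features; COS12, YGL262W and YPS6 were among them. DESeq2 called 20 members, 13.2% against 6.42% of all features. The 20 include both COS3 and COS7, whose rows are identical. A fit of those 6 libraries alone called no feature, while 34 members had an unadjusted p under 0.05 in it.

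In W177A against Δ35–42, 14 features passed (0.246%, of which 0.193% higher and 0.0527% lower), 2 of them members (1.32%), both lower. These 2 were the genes named when the outermost rows were chosen, so this share too is a description. COS12 fell by 1.60 (SE 0.22, adjusted p = 0.000681) and YPS6 fell by 0.89 (SE 0.112, adjusted p = 0.000407), both with no overlap between the 6 libraries. Within batch A alone, that is without W177A replicate 1, 7 members passed (4.61%; all features 1.76%), all lower where 1.37% of all features were, and YGL262W was one of them at -0.98 on the log2 scale (adjusted p = 0.0157). In I39A against Δ35–42 neither YPS6 nor COS12 passed (log2 fold change -0.02, SE 0.111, adjusted p = 0.941 and -0.52, SE 0.213, adjusted p = 0.222).

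All 28 pairs of the 8 groups were then tested for these 3 genes, a choice made after their levels had been seen, with each pair adjusted over all features. YPS6 passed in 18 pairs, COS12 in 15 and YGL262W in 10. For YPS6 the levels in order were CUP1-PHO92, L35A, W177A, WT, pho92Δ, I39A, Δ35–42 and L38P. None of the 3 pairs among CUP1-PHO92, L35A and W177A passed, and none of the 3 pairs among Δ35–42, L38P and I39A passed. W177A and WT, neighbours in the order, did differ (log2 fold change -0.54, SE 0.112, adjusted p = 0.00337). WT and pho92Δ did not pass (0.21, SE 0.111, adjusted p = 0.216), but did without WT replicate 2 (0.40, adjusted p = 0.0413; 0.07 to 0.40 with 1 library left out), and pho92Δ passed against L38P (0.35 higher in L38P, SE 0.111, adjusted p = 0.0244) but not against I39A or Δ35–42.

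The genes whose levels over the 24 libraries were most like those of YPS6 included many from other chromosome ends. By Pearson correlation of log2 CPM, given as a description over libraries that share groups, the nearest of all other features was COS12 (r = 0.898), the next YGL262W (r = 0.879) and the third PCL1, a cyclin gene away from the ends (r = 0.768). Of the 20 nearest features to YPS6, 9 were members, and of the 20 nearest to COS12, 8 were, where members make up 2.67% of the features tested. Besides the 3 genes themselves these were RMD6 (r = 0.766 with YPS6), which is needed for meiotic nuclear division, the ferric reductase gene FRE5 (0.718), YER187W (0.716) and the siderophore transporter gene ARN2 (0.7). YEL073C (0.688), YDR541C (0.684) and YHR210C (0.681) completed those for YPS6, and BDH1, a butanediol dehydrogenase, and GTT1, a glutathione transferase and the next row after YPS6 on right arm IX, joined for COS12 (0.65 and 0.64). Their arms were left I, right IV, both arms of V and VIII, right IX and right XV. This measure was added after the levels had been seen. It starts from YPS6 and COS12, which were named when the rows were chosen with earlier results known. Each count of members includes the other gene and YGL262W, so both counts are descriptions.

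More of the outermost genes were higher than lower in Δ35–42 against CUP1-PHO92. Of the 152 members tested, 41 (27.0%) differed between Δ35–42 and CUP1-PHO92, against 21.8% of all features. Of these, 32 were higher in Δ35–42, which is 21.1% of members against 11.9% of all features, and 9 were lower, 5.92% against 9.97%. The median log2 fold change was 0.09 over the members and -0.02 over all features. At places 6 to 10 of the arms, 20 of 154 genes (13.0%) were higher and 7 lower, and at the outermost place alone 12 of 29 were higher. COS3 and COS7, whose rows are identical, are both among these 12 and among the 32 higher members. These shares are descriptions with no test of their own.

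YEL067C, an uncharacterized gene of left arm V, had the largest change among those named by rule. It was at 8.78, 5.88 and 7.56 CPM in Δ35–42 and at 2.93, 2.17 and 2.05 CPM in CUP1-PHO92, with no overlap, and the log2 fold change was 1.64 (SE 0.344, adjusted p = 0.00245). YML131W, an uncharacterized gene of the left arm of chromosome XIII, was at 174 ± 17.9 CPM, with 155 CPM as its lowest library, against 90.0 ± 14.5 CPM (SD, n = 3) with 103 CPM as its highest. The log2 fold change was 0.95 (SE 0.139, adjusted p = 0.000134), again with every Δ35–42 library above every CUP1-PHO92 library. YER187W on the right arm of chromosome V rose by 1.16 (SE 0.209, adjusted p = 0.000738).

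On left arm V, 3 of the 5 genes were higher in Δ35–42: YEL067C, RMD6 (log2 fold change 0.47, SE 0.161, adjusted p = 0.0439) and YEL073C (1.17, SE 0.417, adjusted p = 0.0495). The last call was lost in 8 of the alternative fits, including those without each CUP1-PHO92 library. The D-lactate dehydrogenase gene DLD3 and YEL068C between them had log2 fold changes of 0.07 and 0.10 and did not pass. On right arm XV, 3 iron genes rose: FRE5 by 0.63 (SE 0.194, adjusted p = 0.0262), FIT3 by 1.15 (SE 0.312, adjusted p = 0.0134) and FIT2 by 1.15 (SE 0.378, adjusted p = 0.0353). The libraries of FIT2 overlapped between the groups, and FIT3 lost its call without replicate 2 of either group. No other arm had 3 members called in one direction in this comparison. Of the genes that fell, MIX23, which encodes a protein of the mitochondrial intermembrane space, had log2 fold change -0.70 (SE 0.0837, adjusted p = 1.7e-05), and CHA1, the catabolic serine deaminase gene, -0.91 (SE 0.244, adjusted p = 0.0122). Middle meiotic markers summed to 689 to 1610 CPM in Δ35–42 beside 1170 to 3820 CPM in CUP1-PHO92, and their part in these results was not tested.

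Of the 5 mutants set against CUP1-PHO92, L38P had the most outermost genes past the threshold. Of the 152 members, 70 (46.1%) differed, against 44.0% of all features, so the total was near the background. The direction was not: 50 members (32.9%) were higher in L38P against 23.1% of all features, and 20 (13.2%) were lower against 20.9%. At places 6 to 10, 36 of 154 were higher and 36 lower. Within batch A, without L38P replicate 2, 59 members passed (38.8%, all features 32.1%), 46 higher and 13 lower. Of all features in that fit, 18.2% were higher and 13.9% lower. L38P was also the strain with the lowest sums of early and middle meiotic markers, given above, and their part in these results was not tested.

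The named genes that rose in L38P included ZRT1 and MMP1. ZRT1, the high-affinity zinc transporter of the cell surface, was at 469, 875 and 737 CPM in L38P against 212, 130.0 and 203 CPM in CUP1-PHO92, and no library of any other group exceeded 273 CPM. MMP1, the S-methylmethionine permease, was at 118, 254 and 192 CPM against 52.8, 28.8 and 45.9 CPM. In both genes replicate 2, the library of batch B, was the highest of the 3 and replicate 1 the lowest. The log2 fold changes were 1.93 for ZRT1 (SE 0.268, adjusted p = 2.44e-05) and 2.15 for MMP1 (SE 0.315, adjusted p = 3.84e-05), and within batch A they were 1.75 and 1.88, both still past the threshold.

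SOA1, a transporter of sulfonates and inorganic sulfur, was at 40.2, 49.2 and 39.2 CPM in L38P against 22.0, 21.2 and 21.2 CPM in CUP1-PHO92 (log2 fold change 1.00, SE 0.148, adjusted p = 4.05e-05). OPT1, a transporter of glutathione and small peptides, was at 41.5, 49.7 and 42.2 CPM against 13.0, 19.1 and 20.9 CPM (1.33, SE 0.357, adjusted p = 0.00571). The groups did not overlap in either gene. The vacuolar amino acid transporter gene VBA2 rose by 0.61 (SE 0.106, adjusted p = 0.000163) and the amino acid permease gene AGP3 by 0.69 (SE 0.109, adjusted p = 7.87e-05), both above all 21 other libraries. AIF1, a mitochondrial flavoprotein linked to cell death, held a narrow 80.7, 83.2 and 79.5 CPM in L38P against 37.9, 35.5 and 43.0 CPM, and rose by 1.07 (SE 0.145, adjusted p = 2.03e-05). YAT1 rose by 1.35 (SE 0.184, adjusted p = 2.05e-05).

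**Figure D4:**
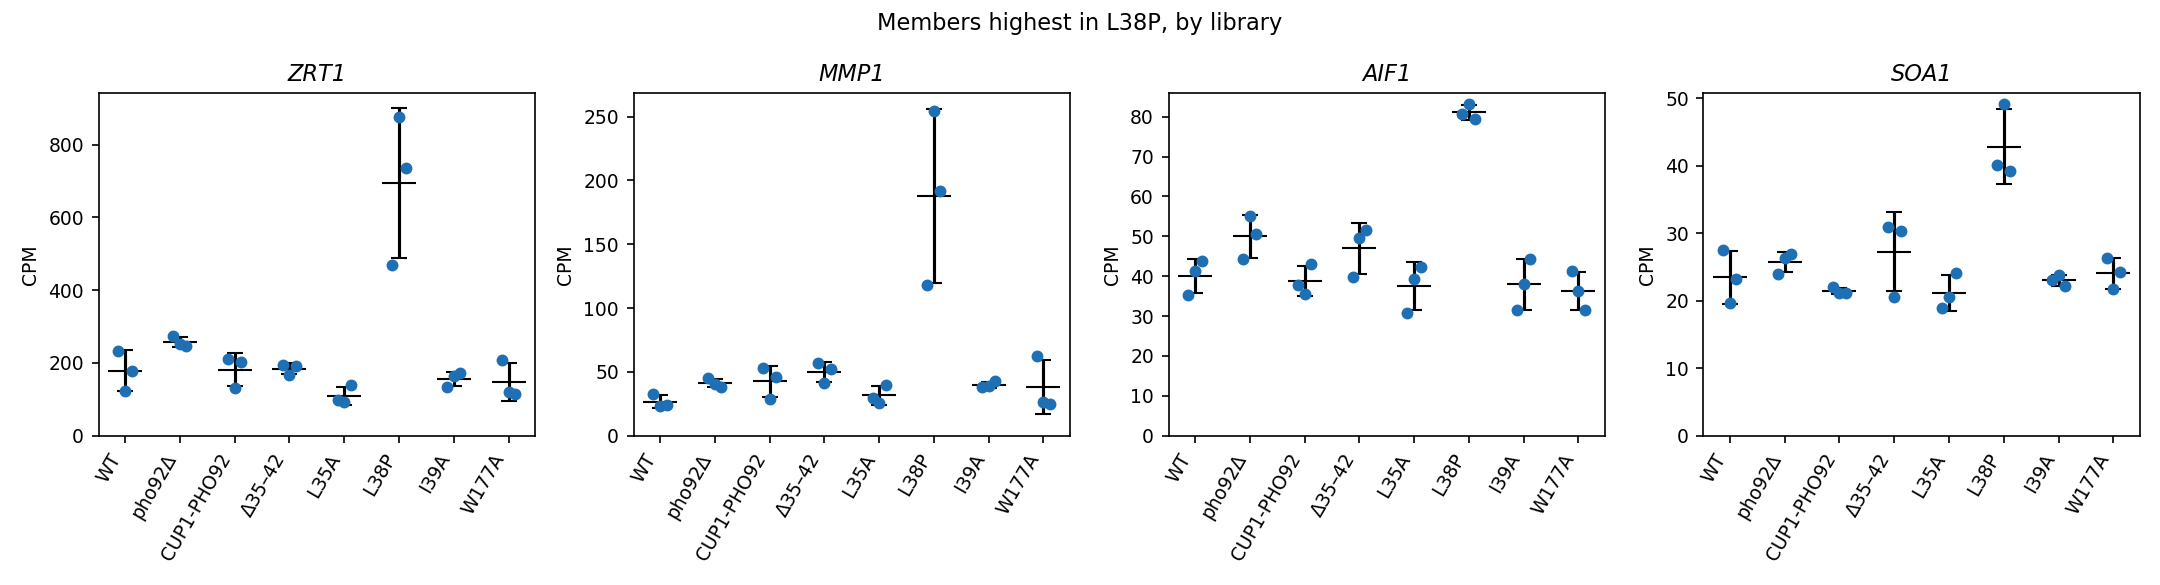
CPM of ZRT1, MMP1, AIF1 and SOA1 in each library (points, 3 per group), with group means (horizontal bars) and SD (whiskers). In each panel the 3 L38P libraries lie above the 21 others; ZRT1 averages 694 CPM in L38P and at most 257 CPM in another group.

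Some arms held several of the genes that were higher in L38P; with 32.9% of all members higher, whether neighbours moved together was not tested. On left arm VII all 5 members were higher: COS12 and YGL262W (log2 fold change 0.67, SE 0.174, adjusted p = 0.00435), the mannosyltransferase gene MNT2 (0.62, SE 0.103, adjusted p = 0.000113), the alcohol dehydrogenase gene ADH4 (0.27, SE 0.0828, adjusted p = 0.0128) and ZRT1. On left arm XII 4 of 5 were higher, and 3 of these handle sulfur amino acids: MMP1, MHT1, the S-methylmethionine-homocysteine methyltransferase (0.60, SE 0.173, adjusted p = 0.00836), and HSU1, which uses hydrogen sulfide to build homocysteine (0.71, SE 0.152, adjusted p = 0.000992). AYT1, an acetyltransferase at the outermost place, rose by 0.86 (SE 0.14, adjusted p = 9.31e-05), and the glutathione transferase gene GTT2 on that arm fell by 0.98 (SE 0.198, adjusted p = 0.000632). In all, 9 arms had 3 or more members higher in L38P.

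The 7 others were right arm III, left arm V, right arm VIII, both arms of IX, left arm X and right arm XIV. On left arm V, YEL067C rose by 1.89 (SE 0.344, adjusted p = 0.000239), DLD3 by 1.32 (SE 0.207, adjusted p = 6.97e-05) and RMD6 by 0.58 (SE 0.161, adjusted p = 0.00682). On right arm VIII, YHR210C rose by 1.71 (SE 0.299, adjusted p = 0.000181), while the methyltransferase gene CRG1 fell by 0.83 (SE 0.171, adjusted p = 0.000719). Left arm III went the other way, with 3 of 5 lower: HMLALPHA1 (-0.97, SE 0.256, adjusted p = 0.0049), CHA1 (-0.77, SE 0.243, adjusted p = 0.016) and VAC17, the vacuole receptor for the myosin motor (-0.62, SE 0.11, adjusted p = 0.000202). HMLALPHA2 on that arm had -0.19 (SE 0.0779, adjusted p = 0.0515). The 2 HML genes cannot be told from the expressed alpha genes at the mating-type locus.

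**Figure D5:**
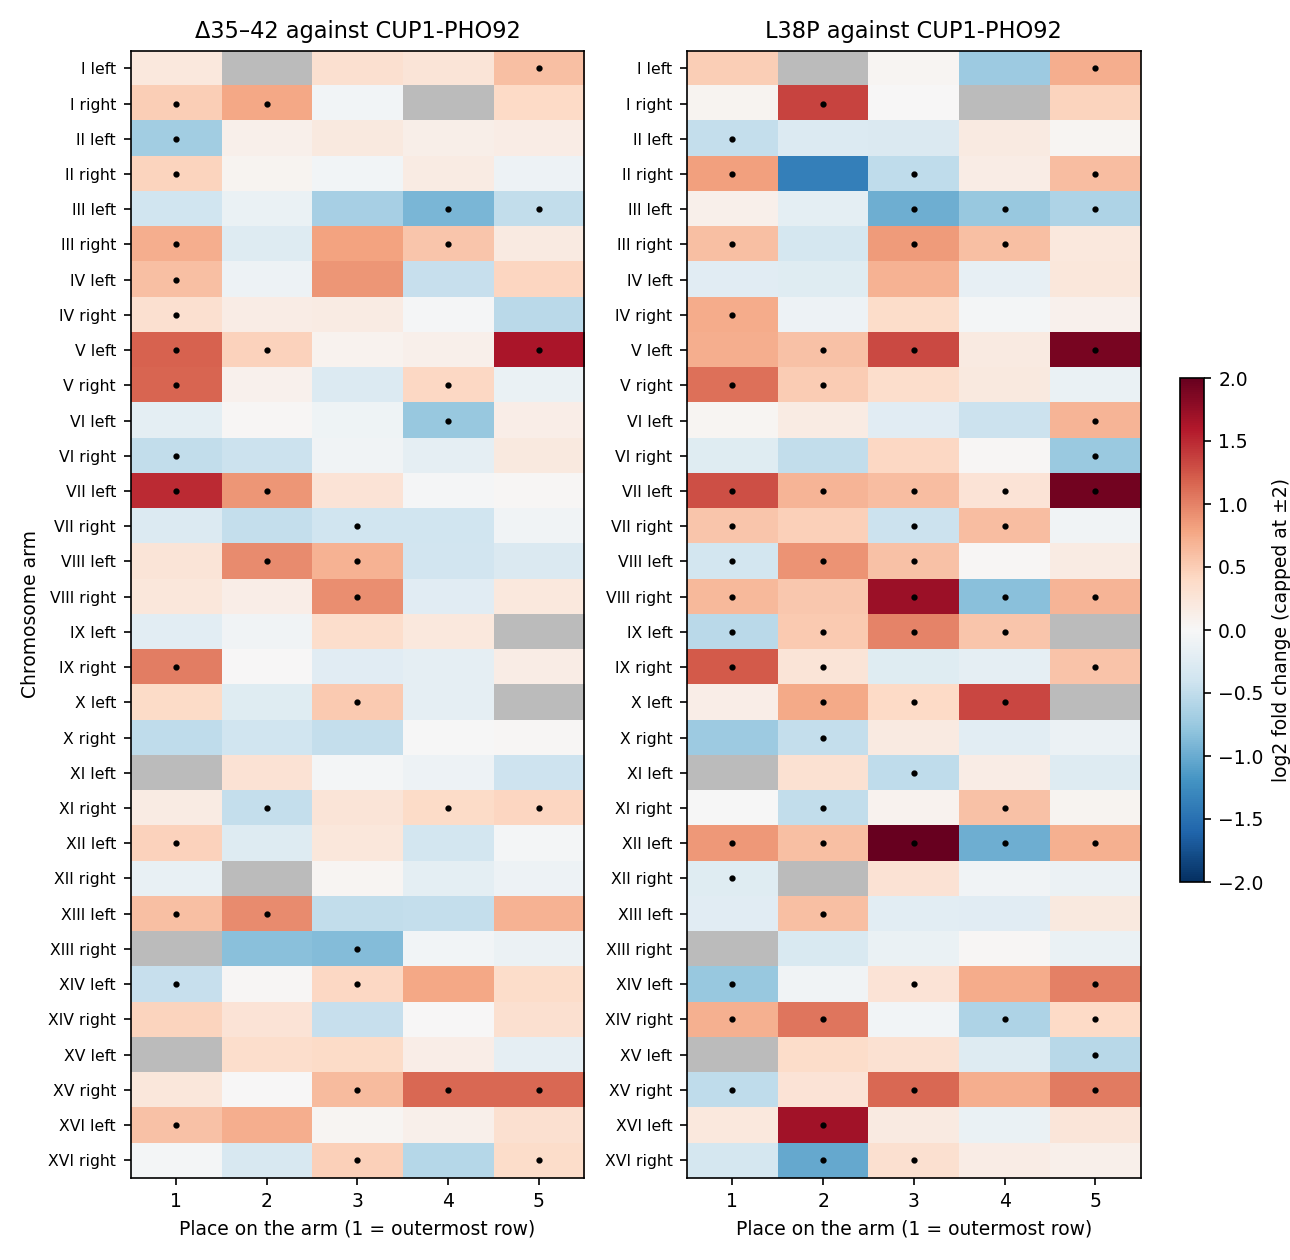
Log2 fold change (colour, capped at ±2) of the 5 outermost rows of each of the 32 arms in Δ35–42 and in L38P against CUP1-PHO92; rows are arms, columns the place from the outermost (1) to the fifth, black dots mark an adjusted p under 0.05 and grey marks the 8 rows removed by the filter. In L38P all 5 rows of left arm VII carry a dot on a red field, and left arm III carries 3 dots on blue.

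L38P was set against Δ35–42 as well, the other strain with many calls. Of 152 members 49 (32.2%) differed, against 36.3% of all features, 32 higher and 17 lower in L38P (all features 19.4% and 16.9%). ZRT1 and MMP1 were each higher by 1.91 (SE 0.267 and 0.312, adjusted p = 3.88e-05 and 0.000177), and COS8 was lower, at -0.61 (SE 0.113, adjusted p = 0.000548). YPS6 (0.21, SE 0.111, adjusted p = 0.149) and COS12 (-0.20, SE 0.21, adjusted p = 0.482) did not pass. The count fell to 22 members (14.5%) without L38P replicate 2 and to 29 (19.1%) without Δ35–42 replicate 1. The shares of all features in those fits are not given here, so the fall cannot be read as particular to the members. Within batch A, 27 passed (17.8%, all features 22.0%), 21 higher and 6 lower, where 12.3% of all features were higher and 9.68% lower.

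I39A had few calls against CUP1-PHO92. YPS6 was the only member to pass in edgeR (1 of 152, 0.658%), where 3 of 5698 features did (0.0527%), and 27 members had an unadjusted p under 0.05. YPS6 was named when the outermost rows were chosen with earlier results known, so that share is a description. With the replicate number as a block, which pairs these libraries, YML131W passed as a second member (log2 fold change 0.58, adjusted p = 0.0206). DESeq2 called 5: YPS6, COS12, YGL262W and YML131W higher and DIA1 lower. Against Δ35–42, 98 features passed (1.72%, with 1.02% higher and 0.702% lower), of which 2 were members (1.32%): MIX23 was higher in I39A by 0.48 (SE 0.0836, adjusted p = 0.0059) and AAD14 by 0.46 (SE 0.0966, adjusted p = 0.0178). The call of AAD14 was lost in the fit of the 6 libraries and in every fit with 1 library left out except that without Δ35–42 replicate 2 (0.38 to 0.54); that of MIX23 was lost in the fit of the 6 libraries. With the block 9 members passed, 3 higher and 6 lower, against 4.63% of all features.

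In L35A and W177A a smaller share of the outermost genes than of all features passed the threshold. In L35A against CUP1-PHO92, 19 members (12.5%) passed, 9 higher and 10 lower, against 22.6% of all features (11.3% and 11.4%). In W177A, 31 (20.4%) passed, 18 higher and 13 lower, against 27.9% (14.9% and 13.0%). ADH6, an NADPH-dependent alcohol dehydrogenase gene of right arm XIII, was lower in both, at 13.4, 14.6 and 16.4 CPM in L35A and 14.5, 12.2 and 14.9 CPM in W177A against 25.1 ± 2.75 CPM (SD, n = 3) in CUP1-PHO92, whose lowest library held 22.5 CPM. The log2 fold changes were -0.76 (SE 0.131, adjusted p = 0.000684) and -0.86 (SE 0.131, adjusted p = 0.000109). Its neighbours FET4, the low-affinity iron transporter gene (-1.12, SE 0.339, adjusted p = 0.0228), and DIA1 (-0.54, SE 0.132, adjusted p = 0.00666) made right arm XIII the one arm with 3 members lower in L35A. FET4 lost its call without L35A replicate 1 or 2, and without CUP1-PHO92 replicate 1, which at 135 CPM stood well above replicates 2 and 3 at 77.9 and 57.4 CPM. Leaving out 1 library gave 8 to 21 members in L35A, with 9 without CUP1-PHO92 replicate 1, 12 without its replicate 3, 8 without L35A replicate 1 and 11 without its replicate 2. The shares of all features in those fits are not given here.

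In W177A the largest named rise was that of YML131W, at 234, 181 and 174 CPM, all above the 103, 91.8 and 74.7 CPM of CUP1-PHO92 (log2 fold change 1.13, SE 0.139, adjusted p = 1.27e-05; 0.97 within batch A). DFP4, a small membrane protein of the same wider family as the COS proteins, rose by 0.79 (SE 0.127, adjusted p = 0.000171). AAD6, an aryl-alcohol dehydrogenase gene, fell by 0.93 (SE 0.18, adjusted p = 0.000963). On right arm III, 3 members were higher: RDS1, a zinc cluster transcription factor gene (0.65, SE 0.222, adjusted p = 0.0354), YCR101C (0.96, SE 0.29, adjusted p = 0.0192) and EMA35 (0.48, SE 0.165, adjusted p = 0.0367). RDS1 lost its call with a batch term (0.63, adjusted p = 0.0583) and without CUP1-PHO92 replicate 1 or 3 or W177A replicate 3 (0.67, 0.56 and 0.50). Within batch A, 25 members passed (16.4%), 9 higher and 16 lower, where 13.7% of all features were higher and 11.4% lower. YCR101C no longer did (0.84, adjusted p = 0.0616), nor did YER187W (0.46, adjusted p = 0.12) or MSC1 (0.75, adjusted p = 0.0693). Without CUP1-PHO92 replicate 1 the count was 20, and without its replicate 3 it was 17, with no share of all features given here for either fit.

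A smaller share of the outermost genes than of all features also passed the threshold in pho92Δ against WT. Between pho92Δ and WT, 17 members (11.2%) passed, 9 higher and 8 lower, against 17.7% of all features (8.18% and 9.48%), and at places 6 to 10 it was 28 of 154 (18.2%). MIX23 was at 50.7, 52.4 and 50.2 CPM in pho92Δ against 67.4, 79.7 and 64.2 CPM in WT (log2 fold change -0.46, SE 0.0837, adjusted p = 0.00141). YML131W was at 194, 190.0 and 155 CPM against 123, 107 and 98.7 CPM (0.72, SE 0.138, adjusted p = 0.00245). Neither gene overlapped between the groups. MPH3, a maltose permease gene, was at 50.0, 41.7 and 37.3 CPM in pho92Δ and at 72.3, 226 and 71.5 CPM in WT, where replicate 2 stood apart. Its log2 fold change of -1.52 (SE 0.378, adjusted p = 0.00995) was not past the threshold without that library or without pho92Δ replicate 3.

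YER187W (0.79, SE 0.207, adjusted p = 0.0127), YHR210C (0.96, SE 0.297, adjusted p = 0.0306), YEL067C (1.01, SE 0.329, adjusted p = 0.0387) and the enolase-related gene ERR2 (0.50, SE 0.126, adjusted p = 0.0104) were higher in pho92Δ; the calls of YHR210C and YEL067C were each lost in 5 of the alternative fits. That of YER187W was lost in 3, with the 6 libraries alone, without WT replicate 3 (0.61) and without pho92Δ replicate 1 (0.67), and that of ERR2 without WT replicate 2 (0.47, adjusted p = 0.0665). SIR1, which establishes silencing at the mating-type cassettes, was lower, with 102 ± 0.761 CPM against 126 ± 8.53 CPM (SD, n = 3; log2 fold change -0.30, SE 0.0823, adjusted p = 0.0169). YPS6 (0.21, SE 0.111, adjusted p = 0.216) and COS12 (0.38, SE 0.216, adjusted p = 0.241) did not pass, although YPS6 did without WT replicate 2, as given above. Leaving out 1 library gave 4 to 17 members: 4 without WT replicate 2, and 10, 7 and 6 without pho92Δ replicates 1, 2 and 3. The shares of all features in those fits are not given here.

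The deletion and the mutants could be set side by side, since pho92Δ against WT and each mutant against CUP1-PHO92 share no library. The mutant comparisons share the CUP1-PHO92 libraries with one another, so their calls are not independent. The direction of change was the same in 108 of 152 members (71.1%) for Δ35–42, where all features gave 73.2%. It was the same in 75.7% for L38P (all features 76.1%), 65.1% for W177A (70.9%), 61.2% for I39A (59.2%) and 57.2% for L35A (55.5%). The outermost genes thus shared direction with the deletion about as often as the genome did. Of the 17 members called in the deletion, 13 were also called in Δ35–42, 12 in L38P, 9 in W177A and 4 in L35A, in each case all in the same direction; these are 76.5%, 70.6%, 52.9% and 23.5% of the members called in the deletion and 31.7%, 17.1%, 29.0% and 21.1% of those called in the mutants. Over all features, the calls made in both were 48.5%, 73.8%, 53.7% and 28.1% of those in the deletion and 39.1%, 29.6%, 34.0% and 21.9% of those in the mutants. None of the 17 was called in I39A by edgeR without a replicate block, where it called 1 member in all; with the block YML131W was called there too, in the direction it had in the deletion.

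The 4 genes called in the deletion and in L35A were MIX23, YML131W, SIR1 and ERV29, which encodes a cargo receptor for transport from the endoplasmic reticulum, and all 4 were also called in Δ35–42, L38P and W177A. YML131W was higher in each of these comparisons and the other 3 were lower. MIX23 and ERV29 were higher in the shared CUP1-PHO92 libraries than in every other library. Their repeated calls in the mutants thus rest partly on 1 reference. SIR1 against CUP1-PHO92 had log2 fold changes of -0.47 (SE 0.0823) in Δ35–42, -0.50 (SE 0.0823) in L38P, -0.41 (SE 0.0822) in W177A and -0.26 (SE 0.0822) in L35A, with adjusted p = 0.0006, 0.000113, 0.00127 and 0.027. VAC17, AAD14, YER187W and DFP4 were called in the deletion, Δ35–42, L38P and W177A. DFP4 was lower in the CUP1-PHO92 libraries than in every other library.

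CUP1-PHO92, which carries wild-type Pho92 from an RNA more abundant than in WT, had 10 members past the threshold against WT (6.58%; all features 6.93%), 2 higher and 8 lower, where 3.93% of all features were higher and 3.0% lower. YAT1 was at 1050, 1130 and 1240 CPM against 2710, 2050 and 2500 CPM, with a fold change of -1.08 on the log2 scale (SE 0.183, adjusted p = 0.00154). The protease gene YPS6, the maltose activator gene MAL33 (-0.51, SE 0.118, adjusted p = 0.0118; lost in 3 fits), QCR2 of respiratory complex III (-0.43, SE 0.103, adjusted p = 0.015) and the peroxisomal ATPase gene PEX6 (-0.34, SE 0.0819, adjusted p = 0.0159) were also lower. ADH6 was higher (0.54, SE 0.131, adjusted p = 0.0151). The calls of QCR2 and PEX6 were each lost in 4 fits and that of ADH6 in 3. Without 1 library the count fell to 2 (CUP1-PHO92 replicate 1), 3 (WT replicate 3) or 6 (CUP1-PHO92 replicate 2), and a fit of the 6 libraries alone called 1. The shares of all features in these fits are not given here.

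Families that gather at chromosome ends gave calls in some members and not in others. All 6 COS genes in the table were outermost rows. In Δ35–42 against CUP1-PHO92, COS12 rose, as did the shared quantity of COS3 and COS7 (log2 fold change 0.59, SE 0.186, adjusted p = 0.028), with a median of 0.44 over the 5 distinct quantities of the family against -0.02 over all features. In L38P, COS12 and COS10 (0.71, SE 0.199, adjusted p = 0.00755) rose and COS8 fell by 0.36 (SE 0.113, adjusted p = 0.0141), and the median was -0.23. COS8 fell in L35A as well (-0.33, SE 0.113, adjusted p = 0.0405), and COS10 rose in W177A (0.55, SE 0.199, adjusted p = 0.0454). In L38P against Δ35–42, 3 COS rows were lower, COS3 with COS7 at -0.82 (SE 0.186, adjusted p = 0.00259) and COS8. No COS gene passed in pho92Δ or CUP1-PHO92 against WT or in I39A against CUP1-PHO92 in edgeR.

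Among the gene lists used here, that for iron uptake held the most outermost rows, with 7 among its 17 genes. ARN2 and ENB1 transport siderophores, FRE2 is a ferric reductase and FRE5 a putative one, FIT2 and FIT3 hold them in the cell wall, and FET4 is a low-affinity transporter. In Δ35–42, 4 of the 7 were higher and none lower, against 11.9% and 9.97% of all features, and over the whole list it was 8 higher and 1 lower. ARN2 was among them (0.95, SE 0.252, adjusted p = 0.0117), but not without CUP1-PHO92 replicate 3 (0.85 to 1.10 with 1 library left out). FIT3 was at 284, 349 and 147 CPM in Δ35–42 against 111, 103 and 139 CPM in CUP1-PHO92, where replicate 3 of Δ35–42 lay close to the CUP1-PHO92 libraries, and its call was lost without replicate 2 of either group. In L38P 3 of the 7 were higher, against 23.1% of all features: ARN2 (0.90, SE 0.251, adjusted p = 0.00738), FRE5 (1.15, SE 0.195, adjusted p = 0.000131) and FIT2 (1.03, SE 0.377, adjusted p = 0.0325).

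In L35A, FIT3 (0.94, SE 0.311, adjusted p = 0.0348) and FRE5 (0.62, SE 0.195, adjusted p = 0.0281) rose and FET4 fell, but FIT3 lost its call without any single library of either group. FRE5 lost its call in 5 of the alternative fits. In W177A, FET4 (-1.21, SE 0.34, adjusted p = 0.0132) and FRE2 (-0.42, SE 0.11, adjusted p = 0.00818) were lower; FET4 was not called without CUP1-PHO92 replicate 1 (-0.80, adjusted p = 0.0927; -1.45 to -0.80 with 1 library left out). In pho92Δ against WT only FIT2 passed among the 7 (1.10, SE 0.378, adjusted p = 0.0493), and it did not pass in 10 of the alternative fits; of the 17 genes 6 were higher, against 8.18% of all features. Across all 8 groups 15 of the 17 differed, against 63.2% of all features.

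Of the 4 genes of the AAD family, AAD14 fell in pho92Δ (-0.41, SE 0.0965, adjusted p = 0.00777), Δ35–42 (-0.45, SE 0.0966, adjusted p = 0.00277), L38P (-0.76, SE 0.0971, adjusted p = 1.34e-05) and W177A (-0.44, SE 0.0965, adjusted p = 0.00271). AAD6 fell in W177A, as given above, in Δ35–42 (-0.77, SE 0.18, adjusted p = 0.00566) and in L35A (-0.63, SE 0.18, adjusted p = 0.0174; lost in 4 fits), and was higher in CUP1-PHO92 than in WT (0.61, SE 0.18, adjusted p = 0.0439). Of the 2 maltose genes in the table, MAL33 rose in Δ35–42 (0.45, SE 0.118, adjusted p = 0.0112) and L38P (0.82, SE 0.118, adjusted p = 3.14e-05). Of 5 rows listed for the transport or use of hexoses and polyols, HXT11 (-0.55, SE 0.14, adjusted p = 0.0039) fell in L38P. HXT12, like HXT11 of the hexose transporter family by sequence, and the sorbitol dehydrogenase gene SOR1 also fell there. HXT8, of the same family, rose. Of the 2 pyridoxine genes, SNO3 rose in pho92Δ (0.40, SE 0.13, adjusted p = 0.0357). YPS6 was the one outermost row of the 5 yapsin genes, of which 3, YPS6 among them, were higher in Δ35–42, where 11.9% of all features were. The PAU list (4 rows) had no call in edgeR in any comparison, while the flocculin list (1 row, higher in Δ35–42 and L38P) and the Y' helicase list held no outermost row.

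Of the 26 genes known for silencing near telomeres or for repressing subtelomeric genes, 1 is itself an outermost row, the histone deacetylase gene RPD3, which held 95.7 to 110 CPM as a group mean and passed in no comparison. SIR3, a structural silencing protein gene, was higher in Δ35–42 (log2 fold change 0.51, SE 0.164, adjusted p = 0.0322) and in L38P (0.63, SE 0.164, adjusted p = 0.00462), and the deacetylase gene SIR2 in L38P (1.04, SE 0.261, adjusted p = 0.00346). In L38P 4 of the 26 were higher and 3 lower, in Δ35–42 5 were higher and 1 lower, in L35A 9 were higher and none lower, and in W177A 5 were higher and none lower. Of all features, 23.1%, 11.9%, 11.3% and 14.9% were higher in these 4 comparisons and 20.9%, 9.97%, 11.4% and 13.0% lower. SIR4 was among the higher genes in L35A (0.80, SE 0.158, adjusted p = 0.00175) and W177A (0.59, SE 0.158, adjusted p = 0.0091). In I39A none passed in edgeR. In pho92Δ against WT 1 was higher, SUM1, the repressor of middle meiotic genes (0.39, SE 0.124, adjusted p = 0.0345), and 2 were lower, the deacetylase gene HST1 (-0.62, SE 0.162, adjusted p = 0.0127) and the corepressor gene CYC8 (-0.52, SE 0.152, adjusted p = 0.0241). In CUP1-PHO92 against WT 2 were lower, and in L38P against Δ35–42 5 were lower. Over the 8 groups 16 of the 26 differed, near the 63.2% of all features.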

How the data were processed

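Poly(A) RNA from 24 libraries was sequenced; the labels' protocols name a directional kit with paired ends, for degron strains only. The authors deposited 1 table of counts per feature, all whole numbers and not normalized. The submitters' processing notes name STAR 2.7.10a, RSEM 1.3.1 and DESeq2 1.48.1; the genome build and the counting settings are not given in the sources used here. The assembly R64 therefore served only for gene names, coding lengths, repeat content and neighbours (5620 of 6157 rows matched); no coordinates or sequences are given.

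Analyses used R 4.3.3 with edgeR 4.0.16, limma 3.58.1 and DESeq2 1.42.0. Features were filtered with filterByExpr (5698 kept), scaled with TMM and fitted in 1 quasi-likelihood model with a mean per group over 24 libraries; 11 comparisons and a test over the 8 groups were made, each adjusted by Benjamini-Hochberg over all features, with a threshold of 0.05. The script was tested on simulated counts. SE is that of a log2 fold change. Floors of 3 counts cover counting error only: no molecular identifiers are mentioned, so copies of 1 molecule may be counted repeatedly.

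Members and gene lists were chosen with earlier results of these data known. Named genes are PHO92, COS12, YPS6, up to 10 members per comparison with the largest change among those past the threshold, at 1 CPM or more and with no overlap between the groups, the 15 smallest p over the 8 groups, up to 5 per group with 1 group apart, arms with 3 or more calls in one direction, the 5 highest levels, and list members; YGL262W, HMLALPHA2, VAC17 and YEL068C among others were named as parts of such arms, and SIR1, ERV29, BDH1 and GTT1 after their values were seen.

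Pairing was checked by correlating deviations from the group means between libraries with the same replicate number. Every such correlation exceeded 0.1 for Δ35–42, L35A and I39A against CUP1-PHO92 (lowest 0.181) and for L35A, I39A and W177A against Δ35–42 (lowest 0.147), so the numbers were taken as pairing there; the labels do not say what a number marks. Alternatives were RLE scaling, no filter, the replicate block, a batch term, the 6 libraries alone, each library left out, DESeq2, 3 or 10 rows per arm, members without repeated sequence, and, added after the header was read, batch A alone.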

Additional observations from a re-analysis of the deposited data

How the results depend on the processing

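Values are the percent of members past the threshold. Of 213 alternative values of these counts and of the count of members with 1 group apart, 161 stayed within 1.5 times the main value, among them all under RLE scaling, without members of repeated sequence, for Δ35–42 and for L38P against CUP1-PHO92, and for the test over the 8 groups. Where counts moved, the cause was not tested, other than that fits of fewer libraries have fewer degrees of freedom. For fits with 1 library left out only member shares are given, so a fall there cannot be read as particular to the members.

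With only the 6 libraries compared, the share was 4.0% for pho92Δ and 0.676% for CUP1-PHO92 against WT, 7.38% for L35A against CUP1-PHO92, and against Δ35–42 it was 0.0% for L35A (34 members at an unadjusted p under 0.05 in edgeR), 16.0% for L38P, 0.0% for I39A (27 members unadjusted) and 0.667% for W177A. DESeq2 gave 3.29% for I39A against CUP1-PHO92, and 13.2% for L35A and 5.92% for I39A against Δ35–42. A batch term gave 8.55% for L35A and 3.29% for I39A against Δ35–42; batch A alone gave 10.5%, 17.8%, 3.95% and 4.61% for L35A, L38P, I39A and W177A against Δ35–42. No filter gave 2.5% for I39A against Δ35–42.

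With the replicate block, the share was 1.32% for I39A against CUP1-PHO92, and 9.21% for L35A and 5.92% for I39A against Δ35–42. The block moved no other count of members by over 1.5 times.

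With 3 rows per arm the share was 1.1% for I39A against CUP1-PHO92, and 3.3%, 2.2% and 2.2% for L35A, I39A and W177A against Δ35–42. With 10 per arm it was 4.25% for CUP1-PHO92 against WT, 0.327% for I39A against CUP1-PHO92, and 0.98%, 0.654% and 0.654% for L35A, I39A and W177A against Δ35–42.

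Leaving out 1 library gave 2.61% to 11.2% for pho92Δ and 1.31% to 6.54% for CUP1-PHO92 against WT. Against CUP1-PHO92 it gave 18.3% to 24.3% for Δ35–42, 5.23% to 13.8% for L35A, 35.5% to 45.8% for L38P, 0.654% to 0.658% for I39A and 11.1% to 19.0% for W177A. Against Δ35–42 it gave 1.31% to 5.26% for L35A (lowest without L35A replicate 1), 14.5% to 34.6% for L38P, 0.654% to 1.32% for I39A and 1.31% to 3.29% for W177A, and over the 8 groups 47.4% to 61.2%.

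Of 1274 alternative values for single genes, 1111 kept direction and side of the threshold, 151 lost the call, 8 gained it and 4 changed sign. The last were YPS6 in I39A against Δ35–42 without Δ35–42 replicate 2 (0.058; -0.091 to 0.058 with 1 library left out), and YGL262W in W177A against CUP1-PHO92 with a batch term (-0.022), without W177A replicate 1 (-0.079; -0.079 to 0.245 with 1 library left out) and in batch A alone (-0.08); none of these passed the threshold in either fit. In these alternatives the calls of COS12 (L35A against Δ35–42) and YPS6 (L35A and W177A against Δ35–42, and CUP1-PHO92 against WT) were lost only in fits of 6 libraries, and that of YGL262W in L35A against Δ35–42 also without Δ35–42 replicate 2 or 3 or L35A replicate 1.

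With 3 libraries per group, small differences can pass unseen. Genes further out than the table's rows were not analysed here, and the table's header gives each group a single strain number, shared by CUP1-PHO92 and W177A.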
